A study of Mus musculus with 24 samples.

Results

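The collagen genes were described here across 24 mouse tumours. Members were all rows of the deposited count table whose symbol is Col, a number, the letter a and a number, and 44 of the 27368 genes in the table met that rule. Of these, 38 had enough reads to be tested, and Col4a3, Col9a1, Col9a2, Col19a1, Col25a1 and Col26a1 did not. The tumours grew under the flank skin of female C3H mice aged 6 to 8 weeks from about 1000000 injected cells of SCC7, a mouse squamous cell carcinoma line. NC cells carried an empty vector and OE cells overexpressed the microRNA miR-21-5p. Treatment began at a mean volume near 300 mm3. Irradiated tumours (IR) received X-rays at 8 Gy a day for 3 days, and sham tumours were unirradiated. Olaparib, an inhibitor of PARP enzymes of DNA repair, was injected at 50 mg/kg 2 h before each irradiation and again on the day after the last. The 8 groups, with 3 tumours each, were NC sham, NC IR, NC olaparib, NC IR+olaparib, OE sham, OE IR, OE olaparib and OE IR+olaparib.

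Groups were read from the letters before the hyphen of each tumour's coded identifier. The written treatment labels gave the same group for 5 tumours and another for 19, and the cell type label said OE for all 24. Levels are given as counts per 1000000 (CPM) scaled by the TMM method. Cdkn1a, a p53 target that rises after DNA damage, ranged from 332 to 765 CPM in the 12 tumours irradiated by the coded letters and from 184 to 342 CPM in the other 12. Gene totals were 37099055 to 40004502 counts a tumour, so depth hardly differed. Whole tumours were sequenced, so fewer cells of a type and less RNA per cell cannot be told apart. The p-values measure the spread between these tumours. The labels also give a batch, which repeats the written treatment and so is shared by tumours of different coded groups. It was not a covariate in the fit. Nothing else in the labels ties tumours of different groups to each other.

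Collagens are the main proteins of the extracellular matrix. Their chains wind together into a helix inside the cell, after hydroxylation of proline and lysine, and are trimmed and cross-linked outside it. Fibrillar collagens (types I, II, III, V, XI, XXIV and XXVII) form the fibres of skin, tendon and tumour stroma. Type IV chains form the network of basement membranes, type VI forms beaded filaments around cells, and the fibril-associated collagens sit on the surface of fibres. Types VIII and X form short-chain networks, type VII anchors epithelium to the dermis, and the transmembrane types include Col17a1 of the hemidesmosomes of basal keratinocytes. In squamous carcinoma much of the type I and III collagen is made by fibroblasts of the host, while tumour cells make basement membrane chains.

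Sequences are shown first for the microRNA that defines the OE tumours and for the match to it in a collagen transcript. The seed of the microRNA (bases 2 to 8) and its match in DNA letters are in capitals.
mmu-miR-21a-5p: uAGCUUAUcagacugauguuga
Col12a1: ggaggcgcctaATAAGCTactaaccaacag
The microRNA lies at chr11:86584120-86584141 on the minus strand of GRCm38.p6 (mm10), as given by RefSeq. The 30 bases of Col12a1 are its 3′ UTR at chr9:79600860-79600889 on the minus strand (GENCODE M21). Of the 44 collagen genes, Col12a1 was the 1 whose annotated 3′ UTR held ATAAGCT on the transcript strand, which is 2.3%, against 1512 of 21028 genes (7.2%). A match of letters is a description and not a shown site.

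The promoters of Col1a2 and Col3a1 are shown because these genes had the highest levels per length among fibrillar collagens and were both far above the rest in the tumour described below. Each run is the 250 bases before the annotated start, from RefSeq on GRCm38.p6, and capitals mark the GC box (GGGCGG), the CCAAT box (CCAAT) and the TATA box (TATAAA).
Col1a2: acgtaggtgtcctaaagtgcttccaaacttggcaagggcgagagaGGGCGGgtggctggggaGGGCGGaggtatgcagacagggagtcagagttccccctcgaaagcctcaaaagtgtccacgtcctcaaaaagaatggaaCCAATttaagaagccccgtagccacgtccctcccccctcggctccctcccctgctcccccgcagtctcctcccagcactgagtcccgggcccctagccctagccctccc
Col3a1: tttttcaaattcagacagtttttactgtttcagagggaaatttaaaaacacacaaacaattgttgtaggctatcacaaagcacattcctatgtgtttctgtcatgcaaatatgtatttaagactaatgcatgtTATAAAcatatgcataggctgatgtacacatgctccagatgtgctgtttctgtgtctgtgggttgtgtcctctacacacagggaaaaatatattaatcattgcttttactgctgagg
The runs lie at chr6:4505368-4505617 and chr1:45311288-45311537, both on the plus strand. RefSeq promoters were matched for 35 of the 44 genes. Searched on both strands, the TATA box was in 14.3% of these 35 promoters and 14.3% of all 27025, the CCAAT box in 37.1% and 37.5%, and the GC box in 60.0% and 35.4%. In these windows Col1a2 held the letters of 2 GC boxes and 1 CCAAT box. Col3a1 held those of 1 TATA box, beginning 117 bases before the annotated start. These matches of letters are a description and not shown promoter elements.

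A single tumour, OE IR+olaparib replicate 3, stood apart from the other 23 and is called the collagen-rich tumour. It was singled out by its share of counts in Col3a1, so its collagen levels are a description with no test. Collagen genes took 11.4% of its counts and 0.489% to 1.21% in the others. It was above all 23 others for 30 of the 44 members, below all of them for Col18a1 and Col4a5, and between them for 12. Of the 38 tested members, 27 were above and 2 below all others in that tumour, beside 21.9% above and 23.3% below among all tested genes. Over the 36 members with a median above 3 reads in the other tumours, its median ratio to that median was 6.91, against 0.985 for all tested genes, and the ratio passed 10 for 15 of the 36 (background 6.99%) and 2 for 27 (21.2%), and was under 0.5 for 4 (17.4%), namely Col2a1, Col4a5, Col18a1 and Col22a1.

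The excess spanned several classes. Col1a1 and Col1a2, the chains of type I collagen, were at 43296 and 32904 CPM there, against 309 to 1269 and 938 to 2083 CPM in the other 23. Col3a1, which mixes with type I in skin and stroma, was at 43604 CPM against 1186 to 2969. Col12a1 and Col14a1, which bind the surface of type I fibres, were at 1658 and 2011 CPM against 7.15 to 37.6 and 10.7 to 76.5. Of the type VI genes, Col6a5 reached 202 CPM against at most 7.89 and Col6a6 reached 105 CPM against at most 4.84. Col18a1, a basement membrane collagen and the source of endostatin, went the other way, at 510 CPM against 848 to 2128, as did Col4a5 at 11.8 CPM against 39.5 to 163.

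Other markers of that tumour differed as well. Krt8 and Krt18, keratins of simple epithelia and of many carcinoma cells, were at 0.285 and 0.317 CPM, against 141 to 915 and 35.0 to 589 CPM in the other 23. Keratinocyte markers as a list, with both of these, took 0.0263% of its counts, within the 0.0242% to 0.151% of the others. With Krt8 and Krt18 near 0 there, its share came from the rest of the list, so those markers as a sum were not lost. Col17a1 was at 21.9 CPM there, against 0.125 to 14.6 CPM in the others. It is in doubt, from Krt8 and Krt18 and not from the rest of the keratinocyte list, whether this library is tumour tissue. Each value that includes it rests on that. Fibroblast markers took 0.936% of its counts and 0.0646% to 0.237% in the others, and Tcf21 of that list was near 0 in all tumours. Dcn was at 4835 CPM against 185 to 1198, Lum at 1259 against 2.48 to 66.6, and Pi16 at 1029 against 5.47 to 47.9. Mki67, a marker of dividing cells, was at 21.6 CPM against 72.4 to 459. Skeletal muscle markers took 0.390% of its counts, and the highest share among the other tumours was 1.60% in NC IR replicate 3. Pericyte and smooth muscle markers took 0.121% (at most 0.0338% in the others) and endothelial markers 0.112% (at most 0.0486%). Adipocyte markers took 0.118% (at most 0.0594%) and Schwann cell markers 0.0178% (at most 0.00544%). Macrophage and hair follicle shares lay within the range of the others. The cartilage and bone share was 0.00253%, against at least 0.00377% in the others. The part of these cell types in the collagen levels was not tested, and the radiation results of the collagen genes are given with and without the collagen-rich tumour.

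**Figure D1:**
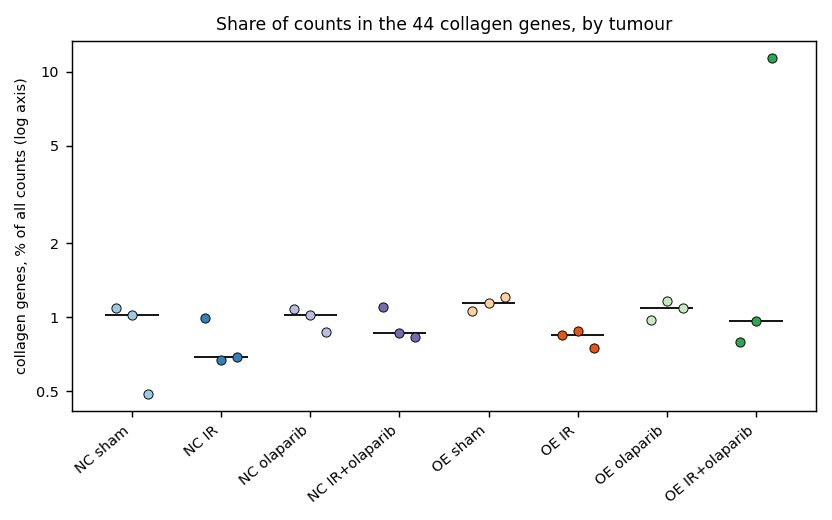
Share of all counts in the 44 collagen genes (percent, log axis) for the 3 tumours of each group, with a line at the group's median. OE IR+olaparib replicate 3 is at 11.4% and the other 23 tumours lie between 0.489% and 1.21%.

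Outside that tumour the group means of the collagen share lay between 0.784% and 1.14%. NC sham had 0.866% ± 0.329 (SD, n = 3), NC IR 0.784% ± 0.181, NC olaparib 0.992% ± 0.105 and NC IR+olaparib 0.933% ± 0.146 of counts in collagen genes. OE sham had 1.14% ± 0.0751, OE IR 0.828% ± 0.0682 and OE olaparib 1.08% ± 0.098. OE IR+olaparib had 4.39% ± 6.07, and 0.792% and 0.971% in its other tumours. The 3 OE IR tumours, at most 0.881%, lay below the 3 OE sham tumours, at least 1.06%, whereas NC sham and NC IR overlapped.

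Per kilobase of annotated exon, the order of levels in the other 23 tumours began with Col3a1, at a median of 217 CPM per kb. Col18a1 followed at 183, Col1a2 at 139, Col1a1 at 115 and Col6a1 at 114 CPM per kb. The type IV partners Col4a1 and Col4a2 had 80.5 and 67.4 CPM per kb, and the type V chains Col5a2, Col5a3 and Col5a1 had 41.3, 40.2 and 29.5. The ranges of neighbours in this order overlapped at all 43 steps, such as 121 to 302 CPM per kb for Col3a1 and 121 to 303 for Col18a1. At the low end, 19 of the 44 members had a median below 1 CPM. These included cartilage genes such as Col2a1 (0.264 CPM), Col10a1 (0.0917) and Col11a1 (0.175), and the kidney and lung chains Col4a3 (0.0271) and Col4a4 (0.108). Medians of 0 were found for Col9a1, Col9a2, Col25a1 and Col26a1, and Col19a1 reached at most 1.03 CPM.

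**Figure D2:**
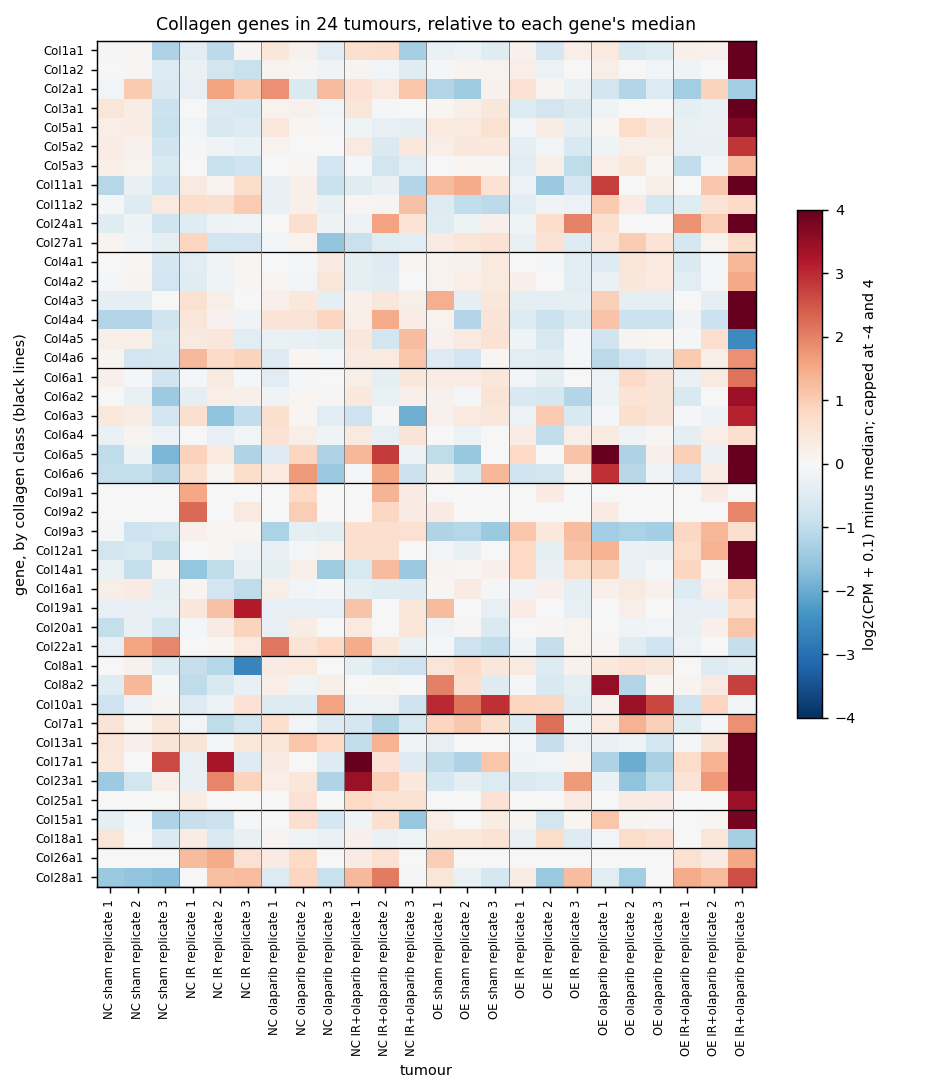
Level of each of the 44 collagen genes (rows, ordered by class) in each of the 24 tumours (columns), as log2(CPM + 0.1) minus the gene's median and capped at -4 and 4. Red is above and blue below the median, and the last column, OE IR+olaparib replicate 3, is red for most genes and blue for Col18a1 and Col4a5.

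The effect of radiation was tested first as a mean over the 4 pairs of groups that differ in radiation alone, with edgeR's quasi-likelihood F-test, Benjamini-Hochberg adjustment over all 16560 tested genes and a threshold of 0.05. With all 24 tumours, 9 collagen genes rose and 2 fell of the 38 tested, while 39.1% of all tested genes were called, 21.7% higher and 17.5% lower. Col4a6, Col6a5, Col9a3, Col12a1, Col17a1, Col20a1, Col23a1, Col24a1 and Col28a1 rose, and Col8a1 and Col10a1 fell. Col4a6 and Col24a1 met the read filter only through irradiated tumours and Col10a1 only through unirradiated ones, in either setting, so these genes had to differ and their calls are no support. Without the collagen-rich tumour, 8 rose and 8 fell, against 17.8% and 19.1% (36.9% in all) of the 16893 genes tested there. All of those 9 apart from Col6a5 were still called higher, Col8a1 and Col10a1 were still called lower, and Col3a1, Col5a1, Col5a3, Col7a1, Col8a2 and Col16a1 joined them. That fit leaves out an irradiated tumour picked for its Col3a1 share, so a lower value there for Col3a1, and for genes high in the same tumour, follows in part from the choice and is no independent evidence of a fall. The median log2 fold change of the 38 genes was 0.331 with that tumour and -0.207 without it, beside 0.041 and 0.010 for all genes. Grouped by the written treatment labels instead, 0 of 38 collagen genes and 0.00604% of all genes passed.

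**Figure D3:**
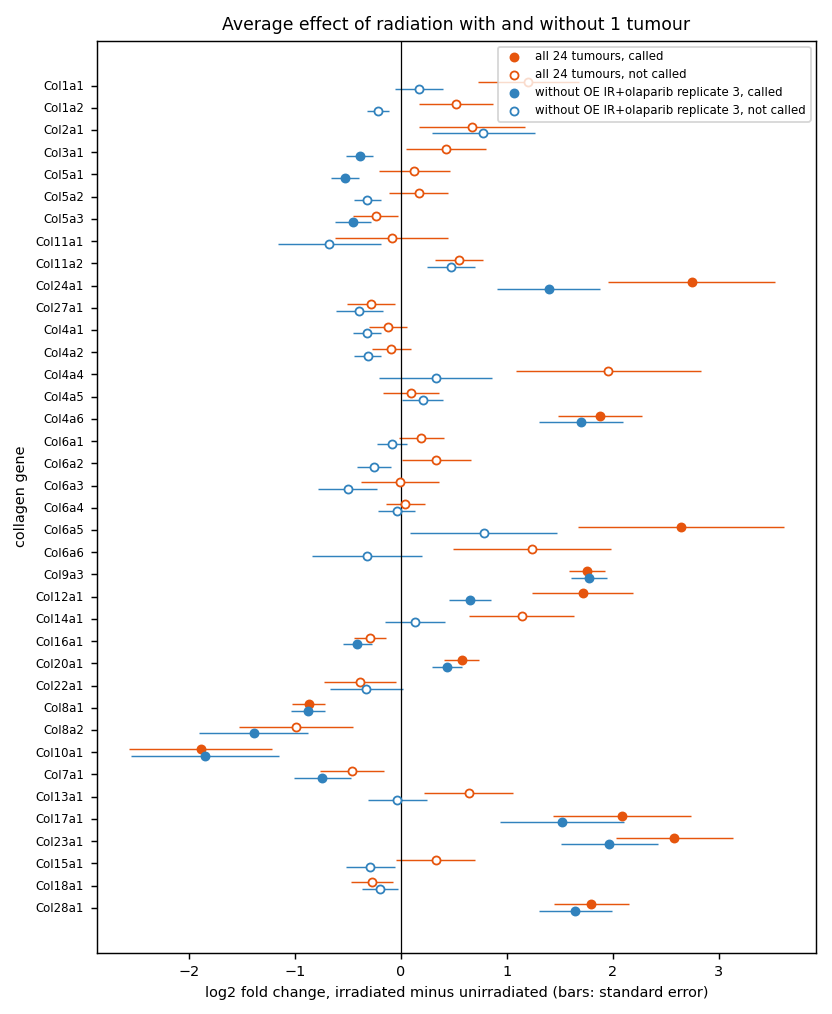
Log2 fold change of irradiated over unirradiated tumours, averaged over 4 pairs of groups, with its standard error, for the 38 tested collagen genes, with all 24 tumours (orange) and without OE IR+olaparib replicate 3 (blue). Filled points passed an adjusted p of 0.05, and the orange and blue points of Col9a3 and Col8a1 coincide while those of Col3a1 and Col5a1 lie on opposite sides of 0.

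Among the fibrillar genes, none was called lower after radiation with all tumours, and the values without the collagen-rich tumour are given as a description. Col3a1 was at 1262, 1640 and 2969 CPM (lowest, median and highest) in the other 11 irradiated tumours and at 1186, 2304 and 2968 CPM in the 12 unirradiated ones, so the ranges overlapped fully. Its log2 fold change was 0.42 ± 0.38 (adjusted p = 0.387, edgeR) with all tumours and -0.39 ± 0.13 without the tumour that was picked on this gene. Col5a1, a regulator of fibre diameter, was at 169, 211 and 323 CPM in the 11 irradiated and 141, 334 and 432 CPM in the 12 unirradiated tumours. Its log2 fold change was 0.13 ± 0.33 with all tumours and -0.53 ± 0.13 without the collagen-rich one.

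Both chains of type I collagen failed the test in either setting. Col1a1 spanned 309, 866 and 1269 CPM in the 11 irradiated and 329, 655 and 1055 CPM in the 12 unirradiated tumours, with log2 fold changes of 0.17 ± 0.23 (adjusted p = 0.591, edgeR) without the collagen-rich tumour and 1.20 ± 0.47 (adjusted p = 0.0513) with it. Col1a2 spanned 938, 1528 and 2083 against 1176, 1773 and 2050 CPM, with -0.22 ± 0.10 and 0.52 ± 0.35. Col5a2 had -0.32 ± 0.13 and 0.17 ± 0.28, and Col5a3 had -0.46 ± 0.17 without that tumour. Col24a1, a rare fibrillar chain, was at 45.6 CPM in the collagen-rich tumour and at most 0.591 CPM in the other 23. Its log2 fold change was 1.40 ± 0.49 without that tumour, a description, since it met the filter only through irradiated tumours and had at most 7 reads in each unirradiated one. Col2a1, Col11a1, Col11a2 and Col27a1 were not called in either setting.

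The basement membrane chains Col4a1 and Col4a2 did not pass the test. Col4a1 was at 407, 542 and 638 CPM in the 11 irradiated and 381, 655 and 842 CPM in the 12 unirradiated tumours, with a log2 fold change of -0.32 ± 0.13 (adjusted p = 0.0698, edgeR), and Col4a2 had -0.32 ± 0.13 (adjusted p = 0.057). With the collagen-rich tumour the values were -0.12 ± 0.18 and -0.09 ± 0.18. Col4a6, a chain of epithelial and smooth muscle basement membranes, was at trace levels, 0.0528, 0.180 and 0.429 CPM after radiation against 0, 0.0497 and 0.130 CPM. Its log2 fold change was 1.70 ± 0.40 without the collagen-rich tumour, again a description for the same reason, with at most 5 reads in each unirradiated tumour, and 8 of the 11 irradiated tumours lay above every unirradiated one. Col4a5 and Col4a4 were not called.

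No type VI gene was called without the collagen-rich tumour. Col6a1 had a log2 fold change of -0.09 ± 0.14, Col6a2 -0.26 ± 0.16 and Col6a3 -0.50 ± 0.28. Col6a4 stayed between 1.00 and 3.15 CPM in the other 23 tumours, at -0.04 ± 0.18. With the collagen-rich tumour, Col6a5 passed at 2.64 ± 0.97 (adjusted p = 0.0381, edgeR), and without it the value was 0.78 ± 0.69 (adjusted p = 0.394).

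Col9a3, a chain of the cartilage collagen type IX, was the 1 tested member whose irradiated and unirradiated tumours did not overlap. Its levels were 1.22, 0.672 and 0.734 CPM in NC sham, 0.471, 0.986 and 0.933 in NC olaparib, 0.498, 0.527 and 0.398 in OE sham and 0.422, 0.475 and 0.438 in OE olaparib. They were 1.50, 1.35 and 1.35 CPM in NC IR, 2.09, 2.11 and 2.01 in NC IR+olaparib, 2.81, 1.74 and 3.18 in OE IR and 2.33, 3.35 and 2.09 in OE IR+olaparib. All 12 irradiated tumours were therefore above all 12 unirradiated ones, which held for no other tested collagen gene and for 0.205% of all tested genes (0.26% without the collagen-rich tumour). No collagen gene had all irradiated tumours below all unirradiated ones, a pattern of 0.429% of all tested genes, and 0.459% without that tumour. The log2 fold change was 1.75 ± 0.17 (adjusted p = 4.35e-06, edgeR) and 1.77 ± 0.17 without the collagen-rich tumour. The counts behind it were 16 to 135 reads a tumour. Col9a3 lies at chr2:180598102-180622192, and 6.1% of its exon bases overlap Tcfl5 on the opposite strand, a gene at no more than 0.186 CPM outside the collagen-rich tumour and 14.8 CPM in it. Its partner chains Col9a1 and Col9a2 stayed at or below 0.382 CPM in all tumours and were not tested.

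Other fibril-associated genes also changed. Col12a1 was at 10.8, 22.2 and 37.6 CPM in the 11 irradiated tumours and at 7.15, 11.7 and 37.5 CPM in the 12 unirradiated ones. Its log2 fold change was 0.65 ± 0.20 (adjusted p = 0.0151, edgeR) there and 1.72 ± 0.48 (adjusted p = 0.00939) with the collagen-rich tumour. The unirradiated tumour at 37.5 CPM was OE olaparib replicate 1, which was the highest of the 23 for Col15a1, Col6a5 and Col6a6. Col20a1 rose by 0.44 ± 0.14 (adjusted p = 0.0238, edgeR), at 2.73, 3.80 and 6.45 CPM against 1.72, 3.02 and 4.22. Col16a1, found in skin near basement membranes, was lower by 0.41 (SE 0.13, adjusted p = 0.0228, edgeR) without the collagen-rich tumour, at 89.2, 136 and 214 CPM against 137, 206 and 230. With all tumours it had -0.29 ± 0.15 (adjusted p = 0.136, edgeR). The collagen-rich tumour had its highest level, 350 CPM, so the lower value without it follows in part from the choice and is a description. Col14a1, with 0.13 ± 0.29, and Col22a1 did not pass.

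Of the short-chain collagens, Col8a1 fell after radiation in either setting and Col8a2 was called lower when the collagen-rich tumour was left out. Col8a1 (chr16:57624256-57754737, minus strand), a component of vessel walls and of the membrane behind the cornea, was at 104, 118 and 73.3 CPM in NC sham and 54.7, 47.0 and 16.5 CPM in NC IR, with no overlap. It was at 130, 136 and 104 CPM in NC olaparib and 79.6, 62.5 and 58.5 in NC IR+olaparib, again with no overlap. In OE tumours it was at 147, 175 and 142 CPM in sham and 133, 73.3 and 116 in IR. With olaparib it was at 138, 153 and 143 CPM and with IR+olaparib at 104, 72.5 and 79.0, and neither of these pairs overlapped. The share of all genes without overlap in each pair was not computed, so this pattern is a description. The average change was -0.87 ± 0.15 (adjusted p = 0.000529, edgeR) with all tumours and -0.88 ± 0.16 without the collagen-rich one, where the gene was within the range of the rest. Across all groups the ranges overlapped, from 16.5 to 133 CPM with radiation and 73.3 to 175 CPM without. Col10a1, the collagen of hypertrophic cartilage, had a log2 fold change of -1.85 ± 0.70 from at most 1.85 CPM. It met the read filter only through unirradiated tumours, with at most 9 reads in each irradiated one, so this is a description. Col8a2 was lower by 1.39 (SE 0.52, adjusted p = 0.0414, edgeR) without the collagen-rich tumour, with values of 0.0954 to 0.397 CPM in the 11 irradiated tumours and 0.0750 to 4.39 CPM in the unirradiated ones. With all tumours it had -0.99 ± 0.54 (adjusted p = 0.148, edgeR). The collagen-rich tumour, at 2.5 CPM, was above the other irradiated ones, so the lower value without it follows in part from the choice and is a description.

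**Figure D4:**
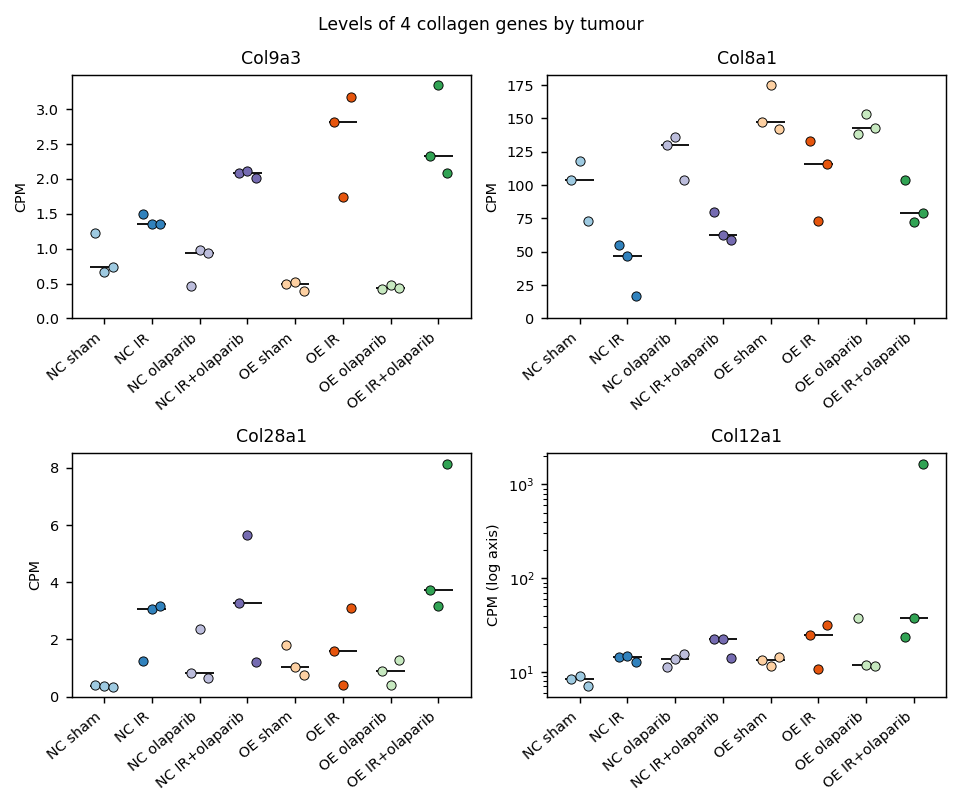
Levels of Col9a3, Col8a1, Col28a1 and Col12a1 in each tumour (CPM, with a log axis for Col12a1), by group, with a line at the group's median. Col9a3 is at least 1.35 CPM in all irradiated and at most 1.22 CPM in all unirradiated tumours, Col8a1 is lower in each irradiated group's median, and Col12a1 has 1 tumour at 1658 CPM.

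Of the genes of epithelial anchoring structures, Col7a1 was called lower when the collagen-rich tumour was left out and Col17a1 rose in either setting. Col7a1, the anchoring fibril, was at 6.95, 11.3 and 75.1 CPM in the 11 irradiated and 11.3, 24.1 and 42.9 CPM in the 12 unirradiated tumours. It was lower by 0.74 (SE 0.27, adjusted p = 0.0356, edgeR) in that fit, and the irradiated tumour at 75.1 CPM was OE IR replicate 2. With all tumours the log2 fold change was -0.46 ± 0.30 (adjusted p = 0.228, edgeR). With the collagen-rich tumour kept and OE IR replicate 2 left out, the value was -0.81. These irradiated tumours had the highest levels of all, with 57.6 CPM in the collagen-rich one. A lower value without either follows in part from the choice and is no independent evidence of a fall. Col17a1 was at 0.515, 0.847 and 14.6 CPM against 0.125, 0.647 and 5.38 CPM, with a log2 fold change of 1.52 ± 0.59 (adjusted p = 0.049, edgeR). Its highest values outside the collagen-rich tumour were 14.6 CPM in NC IR+olaparib replicate 1, 8.51 in NC IR replicate 2 and 5.38 in NC sham replicate 3. With the collagen-rich tumour kept, its call was lost without NC IR replicate 2 (1.47) or without NC IR+olaparib replicate 1 (1.44). Keratinocyte markers as a list took 0.0242% to 0.119% of counts in the 11 irradiated and 0.0441% to 0.151% in the unirradiated tumours. That sum includes Krt8 and Krt18 of simple epithelia, so it does not follow basal keratinocytes alone. The part of these markers in Col17a1 was not tested. Col23a1, also a transmembrane collagen, rose by 1.97 ± 0.46 (adjusted p = 0.00311, edgeR), at 0.413, 1.33 and 8.35 CPM against 0.150, 0.398 and 0.962, and 7 of 11 irradiated tumours lay above all unirradiated ones. Col13a1 was not called.

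Col28a1 (chr6:7997100-8193709, minus strand), a collagen of peripheral nerve, was at 0.396, 3.11 and 5.66 CPM in the 11 irradiated tumours and 0.336, 0.794 and 2.37 CPM in the 12 unirradiated ones. Its log2 fold change was 1.65 ± 0.35 (adjusted p = 0.00151, edgeR), and 7 of 11 irradiated tumours exceeded all unirradiated ones. Of the 7 Schwann cell markers, 3 rose in the same fit, beside 17.8% of all genes, and their summed share was 0.00297% to 0.00544% after radiation and 0.00225% to 0.00398% without. Their part in Col28a1 was not tested. The multiplexins Col15a1 and Col18a1 were not called, with -0.29 ± 0.23 and -0.20 ± 0.17 without the collagen-rich tumour and 0.33 ± 0.37 and -0.27 ± 0.19 with it.

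For the other genes whose value was given without the collagen-rich tumour, the fit of all 24 tumours gave larger values for those that rose. In that fit, Col23a1 had a log2 fold change of 2.58 ± 0.56, Col24a1 2.75 ± 0.79, Col17a1 2.09 ± 0.65, Col4a6 1.88 ± 0.40, Col28a1 1.80 ± 0.35 and Col20a1 0.57 ± 0.17, all called by edgeR. Col10a1 was called at -1.89 ± 0.67. Col5a3 (-0.24 ± 0.21), Col7a1 (-0.46 ± 0.30), Col8a2 (-0.99 ± 0.54) and Col16a1 (-0.29 ± 0.15) had the same sign and were not called, and Col14a1 (1.14 ± 0.50), Col6a1 (0.19 ± 0.22), Col6a2 (0.33 ± 0.33) and Col6a3 (-0.01 ± 0.37) were not called either.

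Within single pairs of groups fewer collagen genes passed, apart from OE tumours under olaparib with all tumours, described below. In NC tumours radiation raised Col28a1 by 2.77 ± 0.74 and Col20a1 by 1.12 ± 0.34, and lowered Col8a1 by 1.32 (SE 0.31), which is 3 of 38 beside 10% of all genes. The number called fell to 0 without NC sham replicate 1 or 3 or NC IR replicate 2 or 3 (0.0118% to 1.59% of all genes), and to 1 without NC sham replicate 2 (7.52%). Their edgeR adjusted p-values were 0.0315, 0.0452 and 0.0231. Without the collagen-rich tumour 4 were called there, with 22.8% of all genes, the fourth being Col4a6 (2.30 ± 0.75), whose call is no support for the reason above. In OE tumours Col9a3 was the 1 collagen gene called, at 2.43 ± 0.35 (adjusted p = 0.0114, edgeR), beside 0.248% of all genes, and 2.35% without the collagen-rich tumour. That call was lost without any one of the OE sham tumours, OE IR replicate 1 or OE IR replicate 3 (0% to 0.0117% of all genes). In NC tumours under olaparib Col9a3 again was the 1 called, at 1.38 ± 0.34 (adjusted p = 0.0485, edgeR, background 1.46%, and 10.3% without the collagen-rich tumour). That call was lost when any of 19 tumours was left out.

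In OE tumours under olaparib the collagen-rich tumour is 1 of 3 irradiated tumours, and 12 of 38 collagen genes were called higher, against 5.40% of all genes called higher and 6.78% called. They were Col1a1, Col1a2, Col3a1, Col4a6, Col9a3, Col12a1, Col13a1, Col14a1, Col17a1, Col23a1, Col24a1 and Col28a1. Of these, Col4a6 and Col24a1 met the read filter only through irradiated tumours, so their calls are no support. Without the collagen-rich tumour, Col9a3 was the 1 left (2.66 ± 0.37, adjusted p = 0.00357, edgeR, background 0.959%), and Col1a1 went from 4.44 ± 1.08 to 0.35 ± 0.49. The number called was also 1 without any one of the OE olaparib tumours (0.146% to 0.158% of all genes), and it was 18 and 20 without OE IR+olaparib replicate 1 and 2 (11.4% and 18.8%). In that pair 7 of 11 fibroblast markers were called higher with the collagen-rich tumour and 1 without it, beside 5.40% and 0.687% of all genes, and their part in the collagen calls was not tested.

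By edgeR with all tumours, and without the collagen-rich one, olaparib gave no call among the collagen genes. On average over 4 pairs, 0 of 38 and 0% of all genes passed edgeR's adjusted threshold, and 13 of 38 had an unadjusted p below 0.05, against 7.67% of all genes. Without the collagen-rich tumour that number was 4 of 38, against 4.29%, with 0 calls, and DESeq2 called 0 with all tumours, beside 0.00615% of all genes. DESeq2 gave 28 of the 38 members an adjusted p here. Col1a1 had a log2 fold change of 1.38 ± 0.48 with the collagen-rich tumour and 0.35 ± 0.23 without it. Olaparib added to radiation gave 0 calls and 0% of all genes in NC and in OE tumours by edgeR, with 1 of 38 (background 3.77%) and 20 of 38 (13.4%) at an unadjusted p below 0.05, and 3 of 38 in OE (1.44%) without the collagen-rich tumour. DESeq2 called 0 in NC (background 0.0185%) and 8 of 27 in OE (background 4.66%) with all tumours. By edgeR the number in OE was 16 without OE IR+olaparib replicate 1 (5.95% of all genes) and 17 without replicate 2 (7.42%), where the collagen-rich tumour is 1 of the 2 left in that group. No member passed the test of whether the effect of radiation differed by olaparib (edgeR, 0 of 38, 0% of all genes), with 6 of 38 and 3.55% of all genes at an unadjusted p below 0.05, and the DESeq2 count was also 0 (0.0431% of all genes).

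Between OE and NC tumours, averaged over 4 treatments, no collagen gene passed with all tumours, beside 0.453% of all genes, while 21 of 38 had an unadjusted p below 0.05 against 15.5% and DESeq2 called 5 of 28, beside 3.86% of all genes. Without the collagen-rich tumour 3 passed, beside 4.96% of all genes. Col8a1 was higher in OE, at 72.5, 138 and 175 CPM in 11 OE tumours and 16.5, 76.4 and 136 CPM in 12 NC tumours (0.69 ± 0.16, adjusted p = 0.0184, edgeR). Col10a1 had 2.42 ± 0.68, a description, since it met the filter only through OE tumours. It was at 0.703 to 1.32 CPM in OE sham and 0 to 0.0917 in NC sham, but the other pairs overlapped, with 0.0993 to 1.85 and 0.0247 to 0.44 CPM in OE and NC olaparib, 0.0257 to 0.22 and 0.0238 to 0.163 in OE and NC IR, and 0 to 0.223 and 0 to 0.0515 in OE and NC IR+olaparib. Col22a1, found at muscle and tendon junctions, was lower at -1.43 ± 0.35 (adjusted p = 0.0252, edgeR), with medians of 0.318 CPM in OE and 0.591 CPM in NC. With all tumours the values were 0.67 ± 0.15 for Col8a1 (adjusted p = 0.0522, edgeR), 2.35 ± 0.66 for Col10a1 (adjusted p = 0.102) and -1.51 ± 0.34 for Col22a1 (adjusted p = 0.0519). Skeletal muscle markers had a median log2 difference of -1.03 in the same comparison without that tumour and 0.26 with it, with 0 of 11 called by edgeR in either, and their part in Col22a1 was not tested.

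Col12a1, whose 3′ UTR holds the seed match printed above, was not lower in OE tumours. It was at 10.8, 14.5 and 37.6 CPM in 11 OE tumours and 7.15, 14.0 and 22.4 CPM in 12 NC tumours, with a log2 difference of 0.65 ± 0.20 (adjusted p = 0.0587, edgeR) without the collagen-rich tumour and 1.70 ± 0.48 (adjusted p = 0.101) with it. Col7a1 had 0.91 ± 0.26 (adjusted p = 0.0506).

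The effect of radiation on Col9a3 was larger in OE than in NC tumours without the collagen-rich tumour, by 1.54 ± 0.34 on the log2 scale (adjusted p = 0.0218, edgeR, background 3.51%). The unirradiated OE tumours, at 0.398 to 0.527 CPM, overlapped the NC range of 0.471 to 1.22 CPM, with 3 of the 6 below it, and the 6 irradiated OE tumours, at 1.74 to 3.35 CPM, overlapped the NC range of 1.35 to 2.11 CPM. With all tumours the difference was 1.46 ± 0.34, the adjusted p was 0.157 and 0.00604% of all genes passed.

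Chains of the same protein were compared through ratios of their counts, which stay within a tumour and are a description. Col4a2 to Col4a1, which lie head to head on chromosome 8 with starts 84 bases apart, had a ratio of 0.699 to 0.903 in the other 23 tumours and 0.865 in the collagen-rich tumour, although Col4a1 counts spanned a range of 2.70 times. Reads shared by the overlapping ends of both genes cannot be split by strand here, and 0.3% of Col4a1 exon bases and 1.0% of Col4a2 exon bases overlap another gene. Col1a1 to Col1a2 had a wider ratio of 0.249 to 0.890, and 1.32 in the collagen-rich tumour. Col6a3 to Col6a1 varied most, from 0.105 in NC IR+olaparib replicate 3 to 1.49 in OE IR replicate 2, a span of 14.2 times. Col5a1 to Col5a2 ranged from 0.369 to 0.892, and Col6a2 to Col6a1 from 0.168 to 0.475, with 0.894 in the collagen-rich tumour. Col4a5 to Col4a1 ranged from 0.0688 to 0.255 and was 0.00785 in the collagen-rich tumour, so there Col4a1 was above and Col4a5 below the other 23 tumours.

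**Figure D5:**
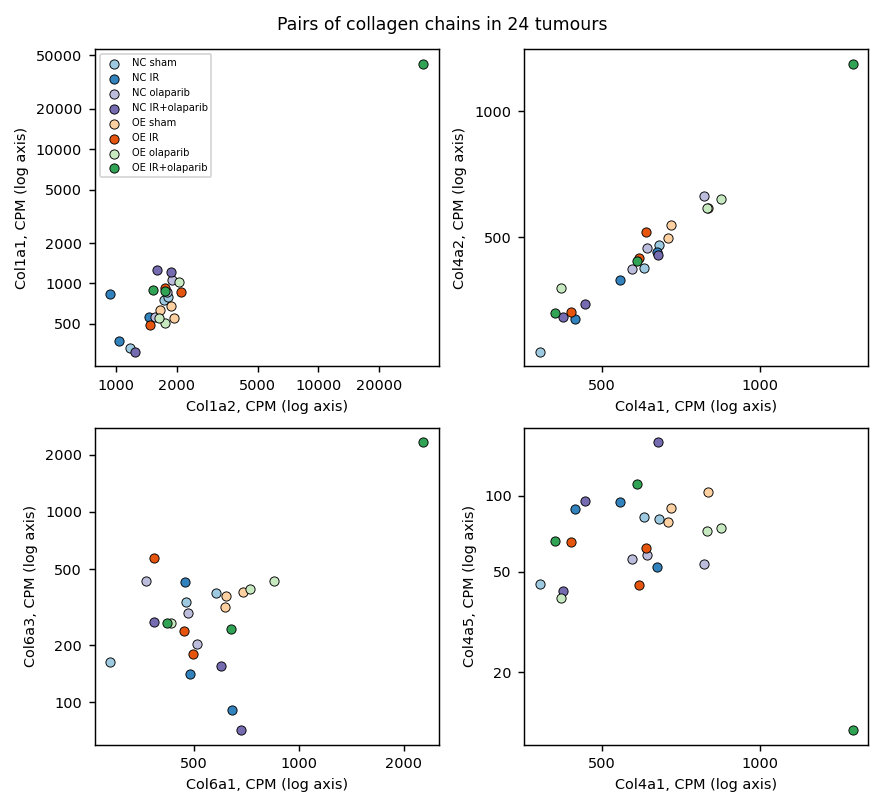
Levels (CPM, log axes) of pairs of collagen chains in 24 tumours, coloured by group. Col4a1 and Col4a2 stay near a fixed ratio of 0.699 to 0.903, Col6a3 spreads against Col6a1, and OE IR+olaparib replicate 3 is at the upper right except for Col4a5, where it is lowest.

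Genes that make, trim and remove collagen were read from lists, beside 21.7% of all genes called higher and 17.5% lower with all tumours, and 17.8% and 19.1% without the collagen-rich one. Of 20 genes that modify and fold chains, 4 were called higher and 2 lower after radiation on average (median 0.05), a share near that of all genes, and without the collagen-rich tumour these numbers were 3 and 2 (median -0.12). Plod3, a lysyl hydroxylase, rose by 0.40 ± 0.07 without it (adjusted p = 0.000337, edgeR), with 194 to 275 CPM in the 11 irradiated and 132 to 196 CPM in the unirradiated tumours. P4ha3, a prolyl hydroxylase subunit, rose by 0.79 ± 0.19 and Crtap, a helper of prolyl hydroxylation, by 0.33 ± 0.06. Creb3l1, a transcription factor of collagen secretion, was called with all tumours (1.34 ± 0.43, adjusted p = 0.0192, edgeR) and not without the collagen-rich tumour (0.55 ± 0.24, adjusted p = 0.0751).

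Of 12 tested genes of trimming and cross-linking, 6 rose and 0 fell in either setting, with medians of 0.56 and 0.38, beside 21.7% and 17.8% of all genes called higher. Loxl3, a lysyl oxidase, was at 77.1 to 126 CPM in the 11 irradiated tumours and 54.1 to 84.7 CPM in the others (0.51 ± 0.08, adjusted p = 0.000159, edgeR). Adamts2, which removes the amino end of procollagen, rose by 1.08 ± 0.28, Loxl1, another lysyl oxidase, by 1.07 ± 0.33, and Pcolce, an enhancer of procollagen trimming, by 0.30 ± 0.10.

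The list of collagen breakdown held 14 genes, among them the inhibitors of breakdown Timp1, Timp2, Timp3 and Timp4. Of the 14, 10 were called higher and 0 lower with all tumours, and 8 and 0 without the collagen-rich tumour (medians 1.06 and 0.65), beside 21.7% and 17.8% of all genes called higher. Timp2, a metalloproteinase inhibitor, was at 1584 to 3670 CPM in the 11 irradiated and 997 to 1373 CPM in the 12 unirradiated tumours, with no overlap (1.11 ± 0.11, adjusted p = 6.03e-06, edgeR). Mmp10, a stromelysin, rose by 2.58 ± 0.36 and Mmp8, the neutrophil collagenase, by 2.84 ± 0.41 without the collagen-rich tumour. Timp1, also a metalloproteinase inhibitor, was at 51.2 to 223 CPM against 45.2 to 93.2 CPM and rose by 0.66 ± 0.13 (adjusted p = 0.00085, edgeR).

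Of 8 tested collagen receptors, 3 rose with all tumours and 1 without the collagen-rich tumour. That gene was Ddr1, a receptor tyrosine kinase, at 28.7 to 42.9 CPM in the 11 irradiated and 20.2 to 28.6 CPM in the unirradiated tumours (0.53 ± 0.07, adjusted p = 7.70e-05, edgeR). Of 19 collagen-binding matrix genes, 6 were called higher and 0 lower with it (median 0.48), and 5 higher and 4 lower without it (median -0.03). Without it, Dcn, a proteoglycan that binds fibres, rose by 1.47 ± 0.25, Lama2, a laminin chain, by 1.09 ± 0.31, Prelp by 1.07 ± 0.31 and Tnxb, a tenascin, by 1.25 ± 0.42. The 4 that fell were Nid2 (-1.07 ± 0.13), Lamc1 (-0.35 ± 0.10), Fn1 (-0.41 ± 0.15) and Bgn (-0.47 ± 0.18), named after their values were seen, and with all tumours their values were -0.47, -0.18, -0.21 and -0.05, none of them called. Of 12 TGF-beta genes, 3 were called higher and 2 lower with all tumours, against 2 and 3 without the collagen-rich one. The receptor Tgfbr2 rose by 0.42 ± 0.10 without it, while Skil and Smad2, which act in the pathway inside the cell, fell by 0.30 (SE 0.10) and 0.19 (SE 0.05).

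Cell type markers moved in the same radiation comparison, and their counts stand beside 17.8% of all genes called higher and 19.1% lower. Without the collagen-rich tumour, 6 of 11 fibroblast markers rose and 1, Dpt, fell. The summed share of the 12 was 0.143% to 0.237% of counts in the 11 irradiated and 0.0646% to 0.116% in the 12 unirradiated tumours, with no overlap. That sum leans on abundant markers such as Dcn, which rose as given above, and does not show a change in each marker. Macrophage markers rose for 7 of 8, with shares of 0.164% to 1.11% and 0.318% to 0.739%. Of 10 pericyte and smooth muscle markers 3 rose and 1 fell, of 9 endothelial markers 1 rose and 2 fell, of 11 skeletal muscle markers 1 rose, and of 7 adipocyte markers 2 rose. Of 13 keratinocyte markers 2 rose and 2 fell, so the list went both ways. The 2 that fell were the simple-epithelium keratins Krt8, by 0.89 (SE 0.21), and Krt18, by 1.32 (SE 0.33). They are named to check the tissue and do not stand for the list. Of 7 tested cartilage and bone markers 3 rose and 1 fell, and of 2 tested hair follicle markers 1 rose. The part of any of these cell types in the collagen changes was not tested.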

How the data were processed

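RNA from 24 whole tumours was sequenced after TRIzol extraction and library preparation with a VAHTS Universal kit, per the labels' protocols. The submitters' processing notes name fastp, HISAT2 and HTSeq and the build mm10, while versions, annotation and strand setting are not given in the sources used here. The authors deposited raw gene counts in a single table of 27368 genes. Totals of 37099055 to 40004502 counts a tumour limited the precision of low genes.

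Differential expression was tested with edgeR 4.0.16 (R 4.3.3, TMM, filterByExpr) on all 24 tumours in 8 groups of 3, with 11 contrasts. Alternatives were DESeq2 1.42.0 (size factors or test), no filter, additive factors, the compared groups alone, the written labels and leaving out tumours. Added after the data were seen was a fit without 2 tumours. The fit was tested on simulated data. Values after ± are standard errors for fold changes and SDs for levels. CPM per kb used GENCODE M21 exons.

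Members and lists were chosen with earlier results of these data known. Values in each setting were computed for 14 abundant or well-known collagens and for those called in any comparison with a mean of at least 1 CPM, and other members are named where called. From other lists up to 4 genes with the smallest p for radiation are named, and those named besides, such as Dpt, Krt8 and Krt18, were picked after their values were seen or to check the tissue. Some genes of these lists that the rule would name are not reported here. No 2 tumours of a group agreed within sampling noise (chi-square per gene at least 13.6).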

Additional observations from a re-analysis of the deposited data

Results flagged for a closer look

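The effect of radiation on Col9a3 differed between OE and NC tumours by a test of the difference itself, at 1.54 ± 0.34 on the log2 scale (edgeR adjusted p = 0.0218) without OE IR+olaparib replicate 3. With all 24 tumours the difference was 1.46 ± 0.34 and did not pass (edgeR adjusted p = 0.157). Levels were at most 3.35 CPM in any tumour.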

How the results depend on the processing

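By the written labels, 0 collagen genes were called for radiation on average, in NC, in OE, in NC under olaparib and in OE under olaparib, and 8 for olaparib added to radiation in NC (2.55% of all genes). Log2 fold changes then reversed for Col4a1 (0.04) and Col4a2 (0.08). Fitted on the compared groups alone, calls were 0 for radiation in NC, 7 in OE (14.4% of all genes) and 0 in OE under olaparib. With no filter, radiation in NC under olaparib gave 0. DESeq2's test gave 8 for olaparib added in OE (4.66%), 5 for OE against NC (3.86%) and 1 for radiation by cell line (1.57%), and its size factors gave 2 for OE against NC (0.749%). Without OE IR+olaparib replicate 3 and NC IR replicate 3, counts were 1 for radiation in NC (4.23%), 2 in NC under olaparib (12.8%), 1 in OE under olaparib (1.35%), 3 for OE against NC (3.68%) and 1 for radiation by cell line (1.63%).

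Leaving out each tumour in turn, radiation on average gave 8 to 16 calls, in NC 0 to 4, in OE 0 to 1, in NC under olaparib 0 to 1 and in OE under olaparib 1 to 20. OE against NC gave 0 to 4, radiation by cell line 0 to 1, olaparib added in OE 0 to 17, and olaparib on average, olaparib added in NC and radiation by olaparib 0. The share of all genes called moved with these counts, from 32.2% to 44.1% for radiation on average, 0.0118% to 22.8% in NC, 0% to 2.35% in OE, 0.00588% to 10.3% in NC under olaparib and 0.146% to 18.8% in OE under olaparib. OE against NC gave 4 without NC IR replicate 1 (2.38%), 3 without the collagen-rich tumour (4.96%), and 1 (0.218% to 0.586%) without NC sham replicate 1, NC IR replicate 3 or OE IR+olaparib replicate 1.

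Single genes reversed for radiation on average without both tumours named above: Col1a2 (-0.18), Col3a1 (-0.36), Col6a1 (-0.07), Col6a2 (-0.27), Col5a1 (-0.51) and Col5a2 (-0.30). Leaving out each tumour, the ranges were -0.22 to 0.65, -0.39 to 0.56, -0.09 to 0.29, -0.26 to 0.46, -0.53 to 0.25 and -0.32 to 0.28 for these, and -0.50 to 0.11 for Col6a3, which was 0.01 under both uses of DESeq2 and 0.06 with additive factors. The range was 1.68 to 1.84 for Col9a3 and -0.96 to -0.80 for Col8a1, and both stayed called. The causes were not tested. No paired analysis was possible because the replicate numbers only name tumours within a group and nothing in the labels ties tumours of the same number to each other. Trace genes such as Col4a6, Col10a1 and Col24a1 are limited by depth, with 0 reads in some tumours.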
